A study of Drosophila melanogaster with 6 samples.

Results

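Dwg summits just downstream of gene starts are the sites where the ChIP signal of Flag-tagged Dwg peaks a short way inside a gene. Members were all summits of the Flag-Dwg ChIP called against the IgG control whose nearest start of a protein-coding transcript lay 51 to 500 bp away, with the summit downstream on the gene's strand. Summits between head-to-head starts, that is, between 2 starts that point away from each other at most 500 bp apart, were left out. The rule gave 2605 of the 10950 summits (23.8%), at 2593 starts of 2568 genes. The rule used position relative to starts and no score, second summit list or sequence. Annotation and sequence vary with that position, so the members' windows are also set against all starts at matched distances.

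Chromatin came from S2R+ cells, a cultured line first grown from Drosophila embryos, in which Flag-Dwg was expressed. It gave 2 Flag-Dwg ChIP libraries, 2 IgG control libraries and 2 input libraries, the last grouped by their titles because their antibody label names Dwg. The authors deposited a summit list from calling the ChIP over the IgG control and another from calling it over input, each with 1 score per summit, the −log10 of its MACS2 q-value. All groups come from cells that carry the tagged protein, and no cells without it enter the lists. Neither list holds a value per library, so no replicate error can be given, and every interval below treats summits, starts or genes as independent and covers counting error only.

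Dwg, also called Zw5, is a zinc finger protein of chromatin insulators, DNA elements that limit contacts between enhancers and promoters and help to shape chromosome loops. In Drosophila many such proteins sit close to the promoters of broadly active genes. BEAF-32 and DREF are a pair of DNA-binding proteins known from promoters of this kind, where they recognize overlapping letters, CGATA for BEAF-32 and TATCGATA for DREF. M1BP is another promoter factor, which reads motif 1.

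The first set comes from 6 of the 10 members of highest score, as examples of the DNA under strong members. The windows of ReepA, of CG46319/gem and of mip120, also among the 10, are not shown. Each sequence is 30 bases of the gene strand centred on the summit, from the NCBI copy of the dm6 genome, and capitals mark any of the 20 6-mers that rose most clearly around the members (described further on).
Pgam5, chrX:1873484-1873513, minus strand, coding sequence: cttcgtGTGCGGCAcaggagccggactggc
His2Av, chr3R:26866966-26866995, plus strand, 5′ UTR: cacgctccggtttcgtgttgcaacaaaata
CG14881, chr3R:16434959-16434988, plus strand, coding sequence: ctttttatgttctccagccacaggacattg
SelT, chr2L:5011209-5011238, plus strand, coding sequence: ggaatgtggcactactggtgctgtgcctgt
CG31759, chr2L:12207772-12207801, plus strand, 5′ UTR: aatgccaaaaacaacagctgATCGCGCGGC
M1BP, chr3R:8731596-8731625, minus strand, 5′ UTR: caaatatcttaaaaacgatttcatttcgga
Of these 6 windows those of Pgam5 and CG31759 hold any of the 20 6-mers.

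The second set shows letters that were more frequent before the members' starts than before the other groups of starts compared, though most member starts lack them. These are 5 high-scoring members that carry TATCGATA in the 100 bp before their start. For each, the first line is 30 bases before the start with TATCGATA in capitals, and the second is 30 bases around the summit with the same 6-mers in capitals as above.
Crag, before the start, chrX:8592002-8592031, plus strand: atcagcatttaggctTATCGATAgaccaaa
Crag, summit, chrX:8592179-8592208, plus strand, 5′ UTR: cattccgccagtcacaccgAGCCGCGCAca
CG12016/Dpm2, before the start, chr3L:3319520-3319549, plus strand: gttactcgagcTATCGATActtgttcgagt
CG12016/Dpm2, summit, chr3L:3319690-3319719, plus strand, 5′ UTR: gaagcagtccgtccggggaGAACGCcccat
rngo, before the start, chrX:16441494-16441523, plus strand: tcccattcaacTATCGATAgtcagaccgcg
rngo, summit, chrX:16441663-16441692, plus strand, 5′ UTR: gattgtgattcactttgccacccaccagtg
Efa6, before the start, chr3R:22587655-22587684, plus strand: cgatatcTATCGATAtattaatacttttat
Efa6, summit, chr3R:22587804-22587833, plus strand, 5′ UTR: aaGCGGCGGCGaaacagtcggacaaaagcg
BRWD3, before the start, chr3R:24318969-24318998, plus strand: ccgccaccaacTATCGATAcgcaaaggcat
BRWD3, summit, chr3R:24319177-24319206, plus strand, intron: gcagcgagtgcgtccaacggggctaccaaa
Crag activates a Rab GTPase, Dpm2 is a subunit of the enzyme that makes dolichol phosphate mannose, rngo is a ubiquitin receptor, Efa6 activates the small GTPase Arf6 and BRWD3 is a bromodomain protein with WD repeats. The letters began 14 bp before the start of Crag, 24 bp before that of CG12016/Dpm2, 48 bp before that of rngo, 93 bp before that of Efa6 and 20 bp before that of BRWD3. The summits lay 163, 150, 125, 64 and 192 bp inside the same genes, in that order.

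The members were densest in a broad zone, between 71 and 180 bp from the start. The median distance was 154 bp (95% interval 151 to 158) and the middle 50% lay between 112 and 258 bp. The fullest 10 bp ran from 131 to 140 bp with 167 summits. Between 101 and 200 bp there were 1252 summits (48.1% of the members), against 330 between 201 and 300 bp. From 241 bp on, no 10 bp held more than 42 summits, a count reached at 321 to 330 bp and at 331 to 340 bp. Summits at the same distances upstream can be set against them only at starts outside head-to-head pairs, since the rule takes the region between paired starts away from the upstream side. At such starts there were 395 downstream summits against 146 upstream at 101 to 150 bp, and 290 against 100 at 151 to 200 bp, ratios of 2.71 and 2.90. The ratio was 0.908 at 51 to 100 bp (315 against 347) and 0.940 at 451 to 500 bp (79 against 84), and was above 1 in each 50 bp from 101 to 400 bp. Counting outside pairs was chosen after seeing the data. At the edges of the rule, 41 summits at 51 to 55 bp had a median score of 18.8, beside 44 summits at 46 to 50 bp with 25.4. At the outer edge, 11 summits at 496 to 500 bp had a median of 8.05 and 11 at 501 to 505 bp a median of 33.5. The same rule applied to the list against input gave 2860 of 12971 summits (22.05%) with a median distance of 156 bp, from the same ChIP libraries.

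**Figure D1:**
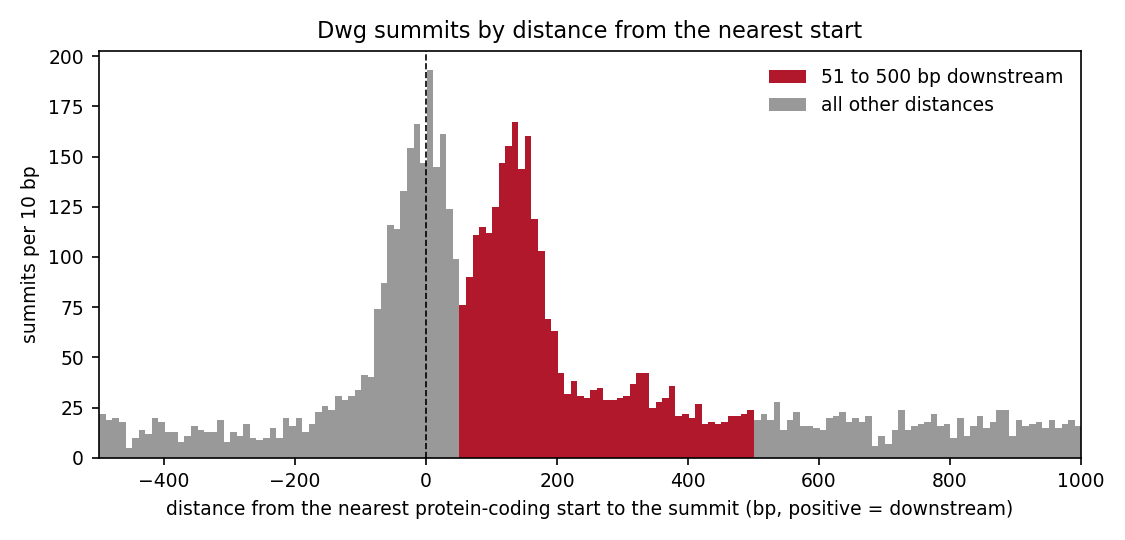
Number of Dwg summits per 10 bp (y axis) by distance from the nearest protein-coding start in bp (x axis, positive values downstream), without summits between head-to-head starts. Red bars are the 2605 members and grey bars all other summits; the members rise to 167 summits at 131 to 140 bp, a second mound apart from the one on the start.

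The starts of these members differed from the other groups of starts compared in the sequence just before them. Starts of summits between head-to-head starts were not a group in this comparison. Nor were starts within 500 bp of a summit that was assigned to another start. The differences below are therefore from the groups named, and not from all other starts with a summit nearby. CGATA, on either strand, stood within the 100 bp before 1074 of the 2593 member starts (41.4%, 95% Wilson interval 39.5 to 43.3). It stood before 394 of 1451 starts with a summit within 50 bp (27.2%), 233 of 1007 starts with a summit 51 to 500 bp upstream (23.1%) and 2507 of 11971 starts with no summit within 500 bp (20.9%). The share over all 19253 starts was 26.0%. The member starts exceeded the starts with a summit on them by 14.3 percentage points (95% Newcombe interval 11.3 to 17.2), and those without a summit by 20.5 points (18.5 to 22.5). The longer TATCGATA, which contains CGATA, showed the same order: it stood before 11.5% of member starts, 5.24% of starts with a summit on them, 3.57% of starts with a summit upstream, 3.32% of starts without a summit and 5.20% of all starts. The difference between member starts and starts with a summit on them was 6.25 points (4.53 to 7.90). Expression was not measured in these libraries.

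The extra letters lay next to the start. In the 50 bp directly before it 30.8% of member starts held CGATA, against 15.7% of starts with a summit on them, 13.9% of starts with a summit upstream and 12.6% of starts without a summit. From 50 to 99 bp inside the gene the share at member starts was 6.13%, against 7.10% at starts with a summit on them and 6.84% at starts without a summit. Around the members' own summits, in windows of 50 bp to each side, CGATA stood in 10.7%, against 12.7% of windows of that size 350 bp further downstream. At the members' median distance from all starts CGATA stood in 13.0% of windows, a difference of −2.25 points (−3.48 to −0.918). TATCGATA stood around 3 of 2605 member summits (0.115%), against 0.265% of windows at the median distance from all starts, a difference whose interval spanned 0. The pairs of sequences above only illustrate these positions. Their genes were picked for TATCGATA before the start, and the rule puts the summit inside the gene.

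**Figure D2:**
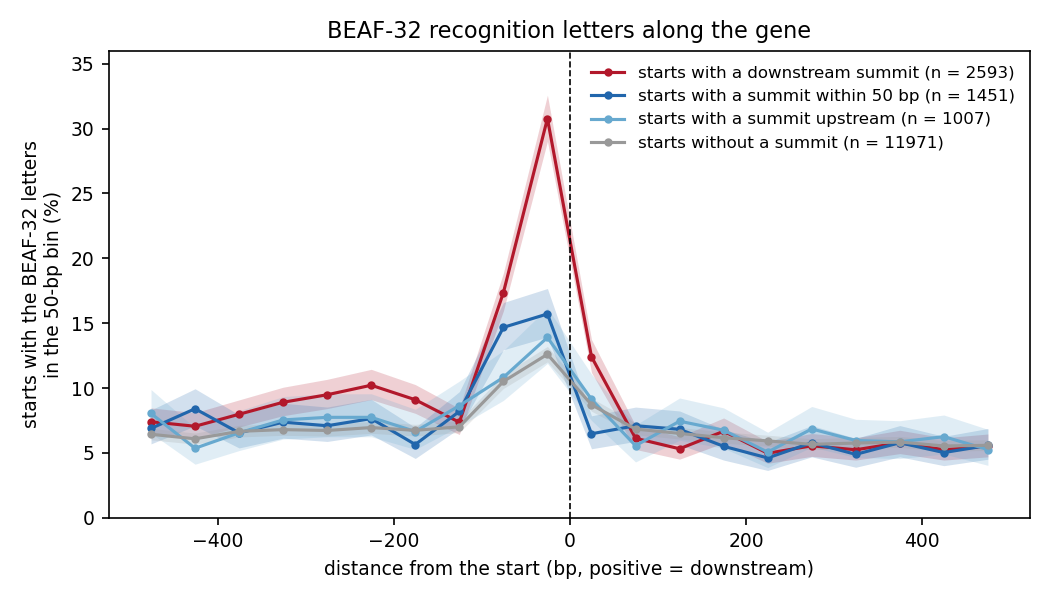
Share of starts with the BEAF-32 letters on either strand in bins of 50 bp (y axis, %) by distance from the start in bp (x axis, positive values downstream), with 95% Wilson intervals as bands. The line for starts with a downstream summit reaches 30.8% in the last bin before the start, above the 15.7%, 13.9% and 12.6% of the other starts drawn, and the lines run together further inside the gene.

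Many member starts belonged to gene pairs that share a promoter region. Of the members, 1042 (40%) had their start in a head-to-head pair at most 500 bp apart, against 22.6% of all starts. Most of all starts had no summit within 500 bp, and of those 11971 starts only 1408 were in a pair. Starts without a summit thus lower the 22.6%. The share over all starts with a summit was not taken, so 40% is not shown to be an excess or particular to the members. By the rule, no start with a summit upstream is in such a pair. Because CGATA is more frequent at such pairs, the shares were also taken apart. Within pairs, CGATA stood before 480 of 1036 member starts (46.3%), against 79 of 208 starts with a summit on them (38.0%) and 562 of 1408 starts without a summit (39.9%), differences of 8.35 points (0.951 to 15.4) and 6.42 points (2.45 to 10.4). Outside pairs it stood before 594 of 1557 member starts (38.2%), against 25.3% of starts with a summit on them and 18.4% of starts without one, differences of 12.8 points (9.36 to 16.2) and 19.7 points (17.2 to 22.3). For TATCGATA within pairs the interval of the difference from starts with a summit on them spanned 0 (3.52 points, −1.79 to 7.67). Among 1882 gene pairs, 182 (9.67%) had a downstream summit in both genes and 676 (35.9%) in one of them. Where both had one, the 2 summits lay a median of 660 bp apart. The rule itself places the promoter region between them, and the share to be had if the genes of a pair were independent was not taken.

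Members with CGATA before the start lay 101 to 200 bp inside the gene somewhat more often than members without it. Of the 1077 members with the letters, 52.4% lay 101 to 200 bp inside the gene (95% interval 49.4 to 55.3), against 45.03% of the 1528 members without them (42.5 to 47.5). By distance, the share with CGATA was 35.3% at 51 to 100 bp, 44.9% at 101 to 150 bp, 45.3% at 151 to 200 bp, 37.6% at 201 to 300 bp, 41.1% (35.8 to 46.6) at 301 to 400 bp and 40% (33.5 to 46.8) at 401 to 500 bp, so the outer bins overlapped the main mound in their intervals. The letters did not mark the higher summits: the median score was 13.5 (12.6 to 14.6) with CGATA and 16.0 (15 to 17.5) without.

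All 6-mers (both strands merged) were then compared between the 100 bp before each member start and a window of that size 350 bp further upstream, a comparison added after the values above were seen. By an exact two-sided McNemar test with Benjamini-Hochberg adjustment, 130 6-mers were more frequent before the start (6.25% of those tested) and 175 less frequent (8.41%). The strongest was TATCGA, present before 756 starts (29.2%) against 188 upstream windows (7.25%), followed by ATCGAT (24.3% against 5.48%) and CGATAG (20.2% against 4.74%). Of the 20 6-mers that rose most clearly, 11 hold CGAT or its reverse complement ATCG. At head-to-head pairs the upstream window can lie inside the partner gene. GGTCAC, part of motif 1, was also among the 20 (9.06% against 3.78%).

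Motif 1 itself, searched as GGTCACAC on either strand, stood before 5.55% of member starts, against 6.89% of starts with a summit on them, 2.78% of starts with a summit upstream, 0.894% of starts without a summit and 2.63% of all starts. The difference from starts with a summit on them spanned 0 (−1.34 points, −2.98 to 0.186). Within 50 bp of the summit, 13 of 2605 members (0.499%) held it, against 0.426% of windows at the median distance from all starts (difference 0.0731 points, −0.158 to 0.436). GAGAG, read by the GAGA factor Trl, went the other way from CGATA, with 11.2% of member starts, against 19.4% of starts with a summit on them, 21.4% of starts with a summit upstream, 16.3% of starts without a summit and 15.4% of all starts.

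The DNA under the members was rich in G and C, and no single exact 6-mer led. The median GC content of the window around a member was 52.5%, against 48.5% in windows 350 bp further downstream. The mean was 52.6%, against 45.2% over all starts at the same distances. Windows around summits upstream of a start had the same median, 52.5%, and those around summits on a start had 50.5%. In the 6-mer test between these windows and the windows 350 bp further downstream, 325 6-mers were more frequent around the summit (15.6% of those tested) and 364 less frequent (17.5%). Of the 325, 274 (84.3%) contain CG, against 604 (29.04%) of all 6-mers. By the same exact test, the clearest was CGCGGC, in 8.87% of member windows against 3.80% of flanks (adjusted p = 1.42e-11). The clearest of those that fell was TACATA, in 2.42% against 7.87% (exact test, adjusted p = 8.70e-17). No 6-mer reached more than a modest share of windows: GCCGCC, among the 20 clearest, stood in 13.3% against 7.56%. Exact 6-mers do not capture sites with gaps or variable letters. Neither the flanks nor the positions at all starts were matched for coding sequence or intron. The part of annotation in the GC and 6-mer differences was not tested. Of the other motifs searched, the E-box CAGCTG stood in 7.02% of member windows, against 5.50% of windows at the median distance from all starts (difference 1.52 points, 0.547 to 2.62) and 4.91% from starts without a summit (2.11 points, 1.11 to 3.22). Around summits on a start it stood in 16.7% and around those upstream in 11.0%, at other positions relative to the start. The CTCF letters AGGTGGCG stood in 0.422% and the Su(Hw) letters GCATACTT in 0.154% of member windows, against 0.301% and 0.249% of windows at the median distance from all starts, differences whose intervals spanned 0.

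Scores of members lay below those of summits on starts. The median score was 14.9 (95% interval 14.1 to 15.6), against 26.7 (24.2 to 29.9) within 50 bp of a single start, 16.1 (14.3 to 18.0) upstream of a start and 36.6 (31.8 to 46.2) between head-to-head starts. It was above the 7.25 of summits in exons over 500 bp from any start. A score of at least 20 was reached by 1041 members (39.96%), against 36.4% of all summits. The share differed from that of summits on a start by −18.5 points (−21.7 to −15.4) and did not differ from that of upstream summits beyond its interval (−3.55 points, −7.15 to 0.0255). Scores varied with distance within the members: 43.8% of those at 51 to 200 bp had a score of at least 20, against 32.0% of those at 201 to 500 bp, a difference of 11.8 points (7.80 to 15.6). Members, 23.8% of the whole list, made up 15 of its 100 highest summits (15%) and 236 of the 1000 highest (23.6%).

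**Figure D3:**
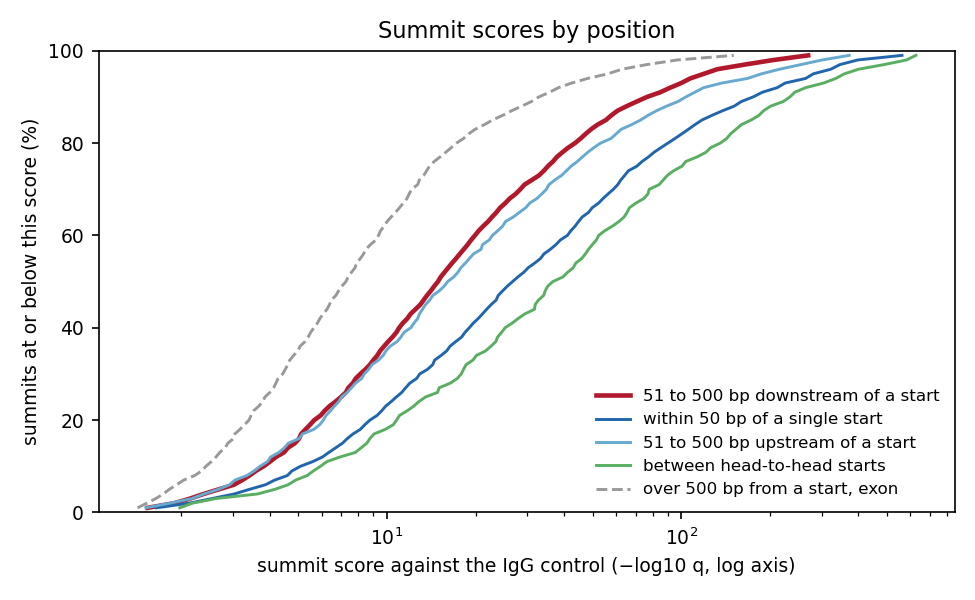
Share of summits at or below a score (y axis, %) by score against the IgG control (x axis, −log10 q, log scale) for 5 positions, drawn from the 1st to the 99th percentile of each. The members, in red, have a median of 14.9, left of the 26.7 of summits on a single start and the 36.6 of summits between head-to-head starts, and right of the 7.25 of distant exon summits.

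Members among the 10 highest came from genes of unlike function. ReepA, of the family that shapes the endoplasmic reticulum, had a score of 619.9 at 95 bp inside the gene. Pgam5, a mitochondrial protein phosphatase, had 515.8 at 67 bp, and His2Av, the histone H2A variant, had 515.5 at 52 bp, next to the inner edge of the rule. CG14881 had 507.3 at 75 bp. The member at the start shared by CG46319 and gem, which encodes a transcription factor of the CP2 family, had 458.9 at 490 bp, close to the outer edge. SelT, the homologue of mammalian selenoprotein T, had 458.4 at 132 bp. The gene mip120, a subunit of the Myb-MuvB complex, had 448.1 at 178 bp, CG31759 had 448.0 at 78 bp and M1BP itself had 443.0 at 88 bp. Each of these had a summit at the same base in the list against input.

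Most members were found again when the same ChIP was called against input. A summit of that list lay within 100 bp of 2344 members (89.98%, 88.8 to 91.1), against 86.9% of all summits. For 1421 members (54.5%) it lay at the same base. The share was lower than for summits on a start (94.97%, a difference of −4.99 points, −6.57 to −3.33). It did not differ beyond its interval from that of summits upstream (89.3%, 0.684 points, −1.45 to 3.02) and was 16.5 points higher than that of distant exon summits (14.3 to 18.7). It went with the score: 75% of members with a score under 5, 84.7% from 5 to 10, 92.5% from 10 to 20 and 97.2% from 20 upward were called again, against 83.9%, 90.5%, 94.7% and 97.9% of summits on a start in the same score classes. Both lists share the ChIP libraries, so this compares controls and not replicates. Of the 261 members without a summit against input nearby, Plap, encoding a phospholipase A2-activating protein, had the highest score, 368.3, with the nearest input summit 2909 bp away. The next were GATAd at 105.1 and CG31220 at 83.2, all 3 named after their values were seen.

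The members lay in coding sequence more often than their distance alone would give. Coding sequence held 1267 members (48.6%, 46.7 to 50.6), against 36.6% of positions at the same distances from all starts and 40.7% from starts without a summit. The 5′ UTR held 907 (34.8%, 33.0 to 36.7), against 37.8% for all starts and 34.4% for starts without a summit. Introns held 297 (11.4%, 10.2 to 12.7), against 20.7% and 20.3%. A further 132 fell differently in different transcripts of one start, and 2 lay elsewhere. Members in the 5′ UTR had a median score of 18.1 and a median distance of 128 bp, those in coding sequence 12.1 and 157 bp, and those in introns 16.9 and 256 bp. For 2464 members with one start codon at their start, 43.9% lay before the codon, 28.2% within 50 bp of it, and the median position was 18 bp past it. Of 2258 members whose start has one first exon, 74.98% lay inside that exon.

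**Figure D4:**
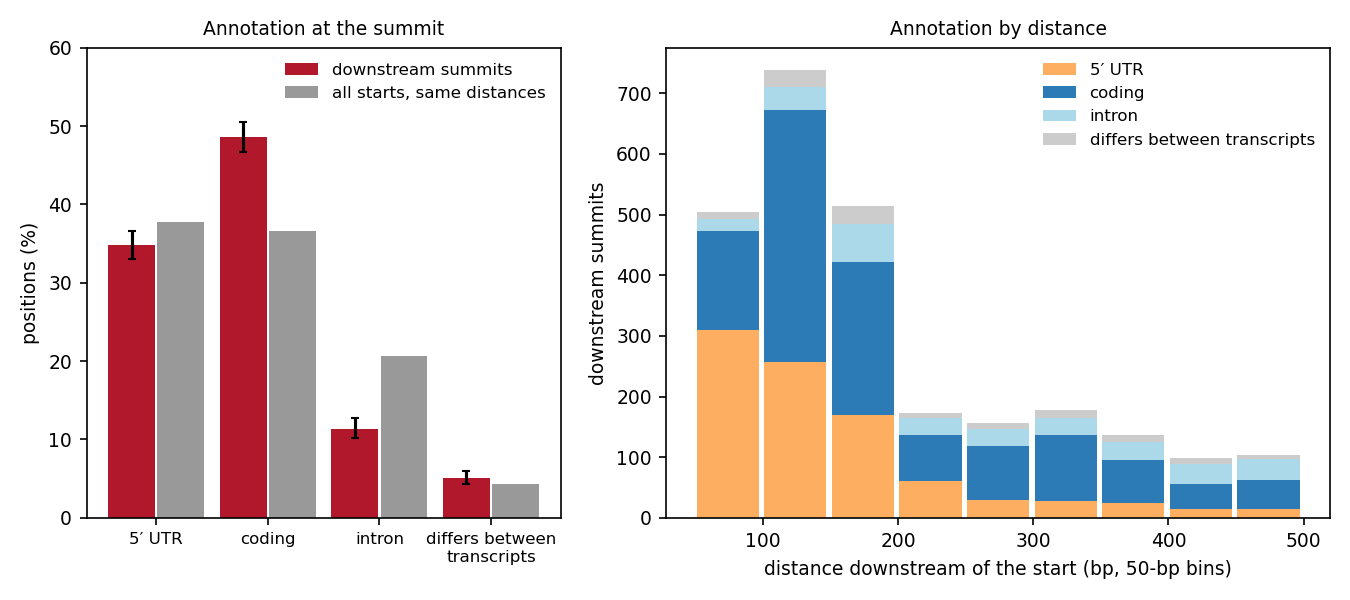
Left, share of positions (y axis, %) by annotation for the members (red, with 95% Wilson intervals) and for all starts at the members' distances (grey): 48.6% against 36.6% in coding sequence and 11.4% against 20.7% in introns. Right, number of members per 50 bp (y axis) by distance downstream of the start in bp (x axis), stacked by annotation, with the 5′ UTR leading at 51 to 100 bp and coding sequence beyond.

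Few member starts had another summit assigned to them. Of the 2593 member starts, 2422 (93.4%) had no summit on them, upstream or between head-to-head starts assigned to them, 29 also had one on the start and 135 one upstream. Only 12 starts had 2 members, 300 to 423 bp apart with a median of 388 bp. Each summit was assigned only to its nearest start, and the list may not hold close summits apart. Whether members are the only bound site at their promoter was therefore not tested, and no such share was taken for other positions. Of the 2568 genes, 2482 had 1 member, 82 had 2 and 4 had 3 or more. In those 4 genes each member lay at a separate start. Svil, the supervillin gene of the actin cytoskeleton, had 4 members, at 44.3, 11.1, 5.65 and 4.33. CG42748 had 39.8, 18.9 and 12.04. The gene mtd, which encodes a protein with a TLDc domain, had 38.0, 6.10 and 2.62, and Pfrx, the enzyme that makes and removes fructose 2,6-bisphosphate, had 36.9, 10.3 and 6.72, the last at a start it shares with CG14200. On the 5 large arms members were 22.8 to 24.7% of the summits, and on arm 4 they were 9 of 67 (13.4%).

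Of all 13945 protein-coding genes, 18.4% had a downstream summit, and the share differed widely between gene groups. Mitochondrial ribosomal proteins had one in 29 of 73 genes (39.7%, 29.3 to 51.2), with a median distance of 141 bp and 28 of 29 called again against input. Their highest was mRpS18A, with a score of 233.5 at 98 bp. In 5 groups written as symbols not all symbols matched an annotated gene: 16 of 19 for Hippo, 22 of 23 for insulin and TOR, 19 of 20 for Notch, 25 of 26 for cyclins and kinases and 28 of 29 for Polycomb and trithorax, and shares are of the matched genes. The groups were written with results of these data known, so the shares are given as descriptions. Genes with any summit at all were 42.3% of all genes, and the groups differed widely in this too. Any summit was found at 20 of 22 insulin and TOR, 12 of 16 Hippo, 43 of 73 mitochondrial ribosomal protein and 14 of 20 Atg genes. For receptors it was 16 of 179 and for cuticle proteins 6 of 70. The shares below therefore do not measure a preference for the downstream position.

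In the insulin and TOR pathway, which links nutrients to growth, 11 of 22 genes (50%, 30.7 to 69.3) had a member. They ran from the receptor InR and its adaptor chico through Akt and Rheb to raptor and S6k, the ribosomal protein S6 kinase, which had the highest score, 60.95 at 172 bp. InR had 2 members, 58.1 at 123 bp and 8.46 at 88 bp of another start. In the Hippo pathway, which restrains organ growth, 8 of 16 genes had one (50%, 28.0 to 72.0), led by the upstream kinase Tao with 213.0 at 118 bp, and including the kinase wts with 5.14 at 495 bp. Of the Notch pathway 4 of 19 genes had one (21.1%), with aph-1, a subunit of the gamma-secretase that cleaves Notch, at 25.5.

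Among nuclear genes, cyclins and cell cycle kinases had members in 10 of 25 genes (40%, 23.4 to 59.3), highest at Cdk7, the kinase that also sits in TFIIH, with 95.6 at 137 bp. Polycomb and trithorax group genes, which keep gene silencing and activity through cell division, had them in 12 of 28 (42.9%, 26.5 to 60.9), highest at Pcl with 78.3, but their median score was 5.19. Mediator subunits had them in 6 of 25 (24.0%), highest at MED1 with 21.9.

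Insulator and architectural protein genes, to whose class Dwg belongs, had members in 7 of 18 (38.9%, 20.3 to 61.4), all 7 called again against input. After M1BP came ZIPIC, which binds the insulator cofactor CP190, with 264.8 at 112 bp. The partners Ibf1 and Ibf2, insulator binding factors whose genes lie side by side, had 14.8 at 328 bp and 18.3 at 147 bp. The remaining ones were low, with su(Hw) at 11.0, Trl at 7.52 and Elba2, of the Elba boundary complex, at 4.34.

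Atg genes, which encode the core machinery of autophagy that the study was concerned with, had members in 6 of 20 (30%, 14.5 to 51.9), an interval that spans the 18.4% of all genes. Atg4a, a protease that processes Atg8, had 147.2 at 130 bp, and Atg13, a subunit of the Atg1 kinase complex, 106.4 at 135 bp. Atg17, of the same complex, had 21.5 at 127 bp and Atg4b, the second Atg8 protease, 19.4 at 180 bp. Atg18a, which binds phosphatidylinositol 3-phosphate, had 8.12 at 439 bp and was not called again within 100 bp against input. Atg14, a subunit of the lipid kinase complex that makes this lipid, had 2.78 at 153 bp. So 5 of the 6 lay 101 to 200 bp inside the gene.

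Of the remaining groups, Rab GTPases, the regulators of vesicle traffic, had members in 10 of 31 genes (32.3%, 18.6 to 49.9), highest at Rab35 with 48.3. Translation initiation factors had them in 11 of 44 (25%, eIF3l highest with 57.0), cytosolic ribosomal proteins in 21 of 86 (24.4%, RpS13 highest with 92.5) and aminoacyl-tRNA synthetases in 8 of 33 (24.2%, LeuRS highest with 119.6). The vacuolar proton pump had them in 5 of 33 (15.2%, Vha16-1 highest with 72.2) and proteasome subunits in 6 of 48 (12.5%, Rpn7 highest with 40.5). The intervals of these last 5 groups, and of the Notch and Mediator groups, span 18.4%. Groups used by differentiated cells were far below it. Odorant, gustatory and ionotropic receptors of sensory neurons had members in 4 of 179 genes (2.23%, 0.872 to 5.60), highest at Ir54a with 9.64, and cuticle proteins of the Cpr family in 1 of 70 (1.43%, 0.253 to 7.66), Cpr51A with 3.21.

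**Figure D5:**
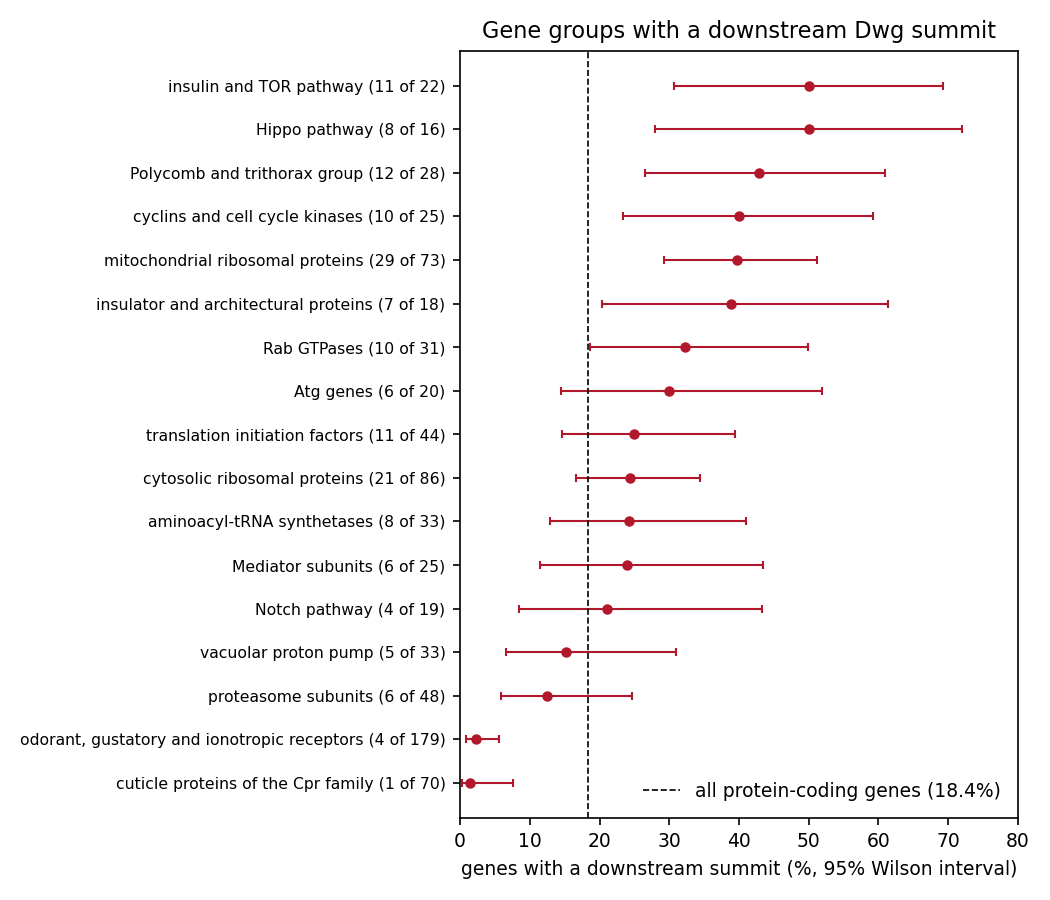
Share of genes with a downstream summit (x axis, %, points with 95% Wilson intervals) in 17 gene groups (rows, with counts), with the 18.4% of all protein-coding genes as a dashed line. The insulin and TOR and Hippo groups stand at 50%, mitochondrial ribosomal proteins at 39.7%, and receptors and cuticle proteins at 2.23% and 1.43%. The groups also differ in their share of genes with any summit, which is not drawn.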

How the data were processed

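ChIP-seq of Flag-Dwg in S2R+ cells was used as 2 deposited lists of 1 bp summits on dm6. The authors trimmed reads (Trim Galore 0.6.4), mapped them (Bowtie2 2.3.5.1), kept unique reads (SAMtools 1.6) and called peaks (MACS2 2.2.6), versions as in the submitters' processing notes. The deposited score is the authors' −log10 of the q-value. Whether replicates were pooled before calling is not given in the sources used here. The lists hold no value per library, so depth per library is unknown.

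Starts were those of protein-coding transcripts on 6 arms in Ensembl release 115, whose assembly is dm6. Each summit took its nearest start. Positions are 1-based. Summits of both lists within 100 bp counted as shared. Shares have 95% Wilson and differences 95% Newcombe intervals, and medians have distribution-free intervals. For annotation, the members' distances were applied to all 19253 starts. All 6-mers, both strands merged, were compared by McNemar's exact test (two-sided, Benjamini-Hochberg adjusted), first run on simulated windows. Motif letters were searched on both strands.

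The members, gene groups and motifs were chosen with earlier results of these data known. Named are the genes of the 10 highest members, genes with 3 or more members, Atg and insulator genes with a member, and the highest member of each other group. One gene that this rule names is not reported here. Other names (Crag, CG12016/Dpm2, rngo, Efa6, BRWD3, InR, chico, Akt, Rheb, raptor, wts, Plap, GATAd, CG31220) were chosen after their values were seen. Alternatives were scores of at least 5, 10 and 20, the input list, one start per gene, 51 to 300 bp, and other sharing distances, flanks and windows. Python 3.11.15 was used with NumPy 2.4.6, SciPy 1.17.1, pandas 2.3.3 and Matplotlib 3.10.9.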

Additional observations from a re-analysis of the deposited data

How the results depend on the processing

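The CGATA difference between member starts and starts with a summit on them kept its direction, and an interval above 0, under all 7 alternatives run for it, all chosen after seeing the data, at 10.4 to 14.4 percentage points. The share of member starts with CGATA was 36.9% at a score of at least 20, 43.8% with the most upstream start of each gene and 38.2% in no head-to-head pair. At scores of at least 5, 10 and 20 the median score was 18.8, 26.8 and 43.6 and the share called again against input 92.8%, 95.5% and 97.2%, as fewer weak summits remain by construction. At 10 and 20 the share in the 5′ UTR was 38.3% and 40.9%, and at 20 the number of 6-mers called was 360. In the list against input the median score was 26.1 and the share found in the other list 81.7%. With the most upstream starts the median score was 16.0. The median distance was 150, 145 and 141 bp at scores of at least 5, 10 and 20, 156 bp in the list against input, 162 bp with the most upstream starts and 138 bp at 51 to 300 bp. At 51 to 300 bp the median score was 15.8, the share called again 91.8% and the share in the 5′ UTR 39.5%. With the flank 350 bp upstream, which crosses the start, 1571 6-mers were called (985 higher, 586 lower), against 689 downstream (325 higher, 364 lower). Over all starts the ratio of downstream to upstream summits was 5.05 at 101 to 150 bp and 5.14 at 151 to 200 bp, against 2.71 and 2.90 outside head-to-head pairs, an alternative chosen after seeing the data. No paired analysis was possible because neither list gives values by library, and for the same reason no library could be left out. Without depth or coverage per library, the precision of a single summit's position or score is unknown.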
